A study of Mus musculus with 8 samples.

Results

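The amino acid and peptide transporters described here are the solute carrier genes of families 1, 3, 6, 7, 15, 36, 38 and 43, which carry amino acids, small peptides and some related molecules across cell membranes. They were taken by name: every non-control probe whose gene name in the array files is Slc, one of these 8 family numbers, the letter a and a number. The rule found 79 of 55681 non-control probes, for 64 genes, and 59 of these genes were measured above background and tested among 20002 genes. Their levels were read in intestine of mouse pups of strain 129SV at 3 days of age. The groups were the small intestine of claudin-7 knockout (KO) pups, the small intestine of wild-type (WT) pups, the large intestine of KO pups and the large intestine of WT pups, with 2 arrays each (replicates 2 and 3). Claudin-7 is a membrane protein of epithelial cell junctions. No group was treated. The labels do not say how the knockout allele was made, from which stretch of each segment the fragment was cut, or which samples came from one animal, so the p-values measure only the spread between these samples.

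Dietary protein reaches the gut epithelium as peptides and free amino acids. Carriers of the brush border, on the side of the gut lumen, take them up with sodium or protons or in exchange for other amino acids, and carriers of the basolateral membrane pass them on to the blood. Several work as pairs of a light chain, which transports, and a heavy chain, Slc3a1 or Slc3a2, which brings it to the membrane. Other members of the same families clear neurotransmitters such as glutamate, serotonin and dopamine, or move amino acids and peptides out of lysosomes.

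Values are the log2 of the processed spot signal relative to each array's 75th percentile, so that 0 is the signal at that percentile, and a difference of 1 is a change of the signal by 2-fold. Levels of different genes come from different probes and were not set against each other. Differences are given as log2 estimate ± standard error from limma over all 8 arrays, with n = 2 arrays per group. A gene passed when its p, adjusted by the Benjamini-Hochberg method over all 20002 genes, was under 0.05. The probe of Cldn7 itself read 2.21 and 0.94 in KO small intestine against 5.89 and 5.93 in WT small intestine, and 2.08 and 2.16 in KO large intestine against 5.70 and 5.56 in WT large intestine. That is a difference of -4.34 ± 0.39 in the small intestine (limma adjusted p = 0.00794) and of -3.52 ± 0.39 in the large intestine (adjusted p = 0.0338). Whether the probe lies in the deleted part of the gene is not given in the sources used here. Between 63.6% and 72.1% of the spots of an array were well above background. The arrays are whole pieces of gut wall, and in such bulk samples fewer cells of a type and less RNA per cell cannot be told apart.

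In the small intestine, 9 of the 59 transporters passed between KO and WT. Slc15a3, Slc1a6, Slc38a4, Slc43a1, Slc6a15 and Slc7a3 rose, and Slc38a7, Slc6a7 and Slc7a8 fell. That is 15.3% of the members, against 10% of all genes tested, with 6.47% of all genes higher and 3.55% lower. The members' median difference was 0.14, and the median of all genes was -0.10. In the large intestine none of the 59 passed in limma, against 0.31% of all genes, and 11 (18.6%) were at an unadjusted p under 0.05, against 13.2% of all genes. Over both segments together 2 members passed, Slc15a3 upward and Slc7a8 downward, which is 3.39% of the members against 0.63% of all genes, of which 0.395% were higher and 0.235% lower. The difference of the knockout effect between the segments passed for none of them, against 0.14% of all genes, and 14 (23.7%) were at an unadjusted p under 0.05, against 25.9% of all genes. For no member was a knockout effect therefore shown to differ between small and large intestine. Between WT large and WT small intestine 23 members passed (39.0%, against 20.0% of all genes), 7 higher and 16 lower in the large intestine, where 9.99% of all genes were higher and 9.97% lower.

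**Figure D1:**
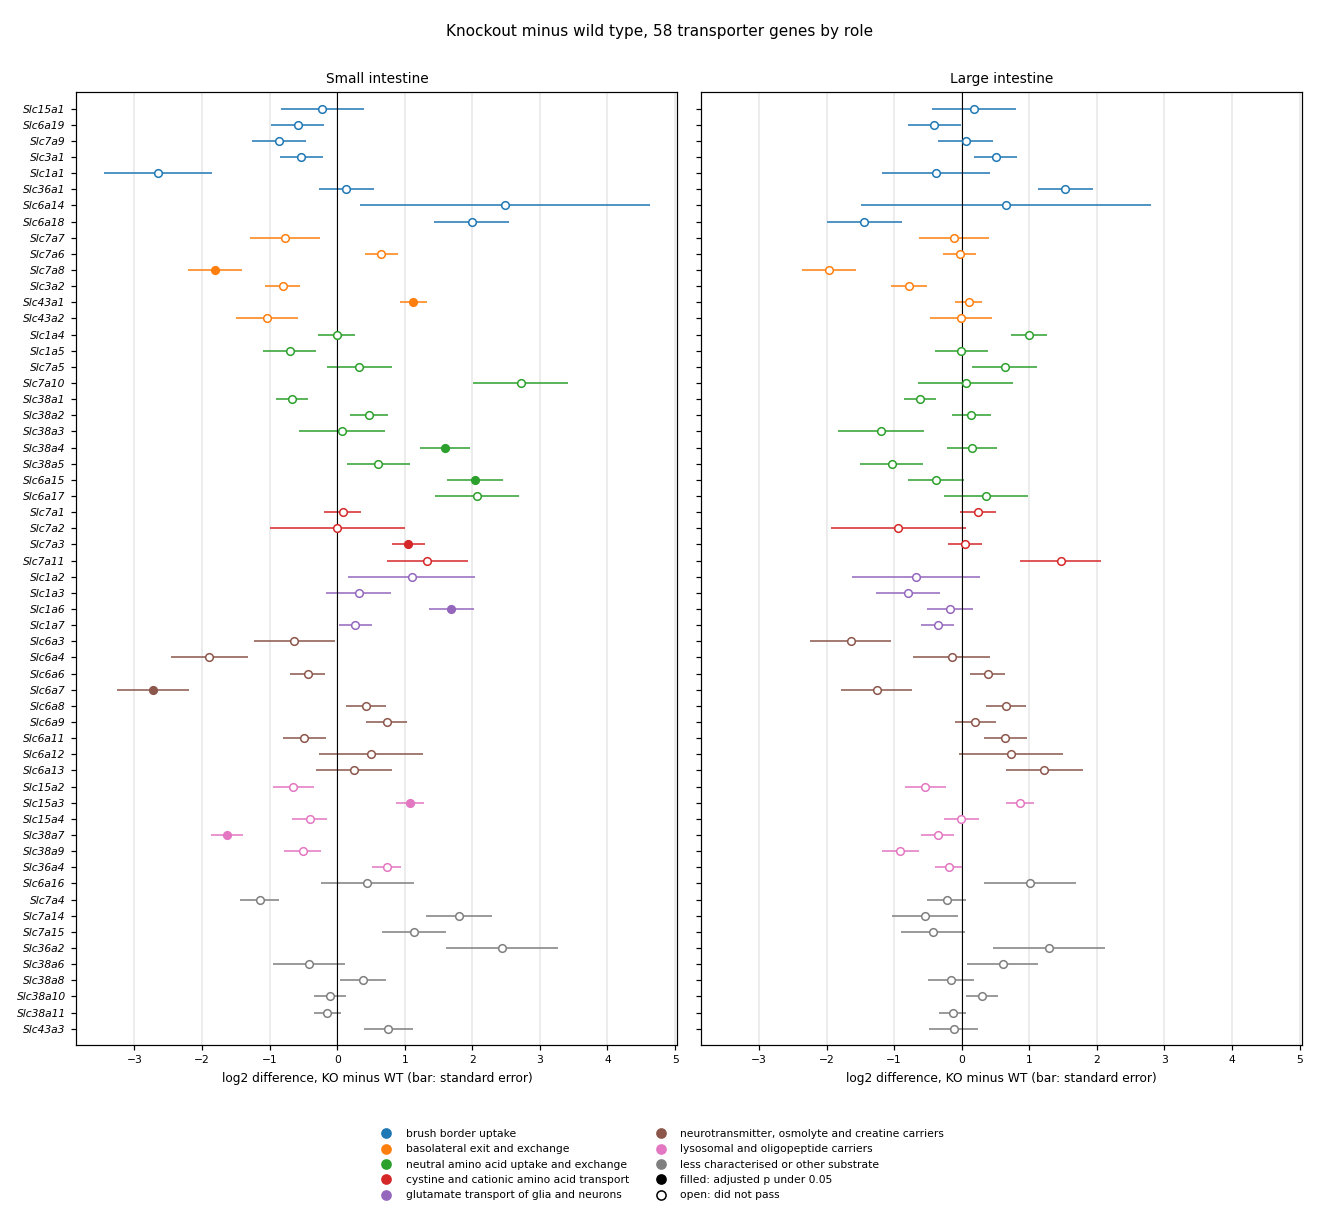
The log2 difference KO minus WT (x axis) of 58 of the 59 transporter genes (rows, coloured by role) in small intestine (left) and large intestine (right), with bars of 1 standard error from limma and filled points for an adjusted p under 0.05. The 9 filled points lie in the small intestine, between -2.72 (Slc6a7) and 2.04 (Slc6a15), and the large intestine has none.

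The calls of the knockout comparisons depended on single arrays. In place of the 9 members that passed in the small intestine, 8 passed without replicate 2 of WT small intestine (13.6%, against 9.77% of all genes), and 21 passed without replicate 2 of KO small intestine (35.6%, against 19.1% of all genes). Without either array of KO large intestine 2 members passed (3.39%, against 3.89% of all genes). None passed in limma, against 0.35% to 0.525% of all genes, without replicate 3 of KO small intestine, without replicate 3 of WT small intestine or without either array of WT large intestine, all of which enter the shared estimate of spread. With the background filter dropped, which adds genes near background to the adjustment, Slc38a7 was the sole member to pass (1.56%, against 1.95% of all genes), and with the authors' deposited normalized values 14 members passed (23.7%, against 14.1% of all genes). In these settings the share of members that passed moved in the same direction as that of all genes. Marker genes of other cells differed between KO and WT small intestine too. All 6 enteric neuron markers measured passed upward in KO small intestine, while all 4 T cell markers measured passed downward. Upward there were also 4 of 5 markers of enteric glia, 3 of 4 of mesothelium, 2 of 4 of macrophages, 1 of 4 of neutrophils and 1 of 6 of smooth muscle. Of all genes, 6.47% passed upward and 3.55% downward. The neuron markers' signals, as multiples of the array's 75th percentile, summed to 27.7 and 47.1 in KO small intestine against 12.7 and 7.32 in WT small intestine, and all 6 were well above background on all 8 arrays. None of 6 enterocyte markers passed, with a median difference of -0.16. The part of these cell types in the transporter values was not tested.

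Of the 8 brush border carriers, 3 were lower and 1 was higher in WT large than in WT small intestine, with a median difference of -0.32. There, 9.97% of all genes were lower and 9.99% higher. None of the 8 passed between KO and WT in either segment, against 10% of all genes in the small and 0.31% in the large intestine. Slc6a19, the main sodium-coupled carrier of neutral amino acids in the brush border, (probe at chr13:73818718-73818777, mm9) read -1.28 and -1.76 in WT large intestine against 3.87 and 3.82 in WT small intestine. It fell by 5.36 ± 0.39 in the large intestine, a 41.2-fold difference (limma adjusted p = 0.000609), and it passed under every alternative and without each array in turn. KO intestine showed the same split, with -2.19 and -1.67 in KO large intestine and 3.80 and 2.72 in KO small intestine. Slc7a9, the light chain that takes up cystine and cationic amino acids, read 3.73 and 3.80 in WT large intestine against 5.38 and 5.68 in WT small intestine (-1.76 ± 0.40, adjusted p = 0.0285). Its heavy chain Slc3a1 read 2.36 and 2.33 in WT large intestine against 3.21 and 3.86 in WT small intestine (-1.19 ± 0.32, adjusted p = 0.0457). Both partners of this carrier were thus lower in WT large than in WT small intestine, with no overlap of the arrays. Without either array of WT large intestine or without replicate 3 of WT small intestine neither passed, and Slc7a9 also missed without replicate 2 of WT small intestine, and Slc3a1 without either array of KO large intestine. The adjusted p reached 0.133 for Slc7a9 and 0.207 for Slc3a1.

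**Figure D2:**
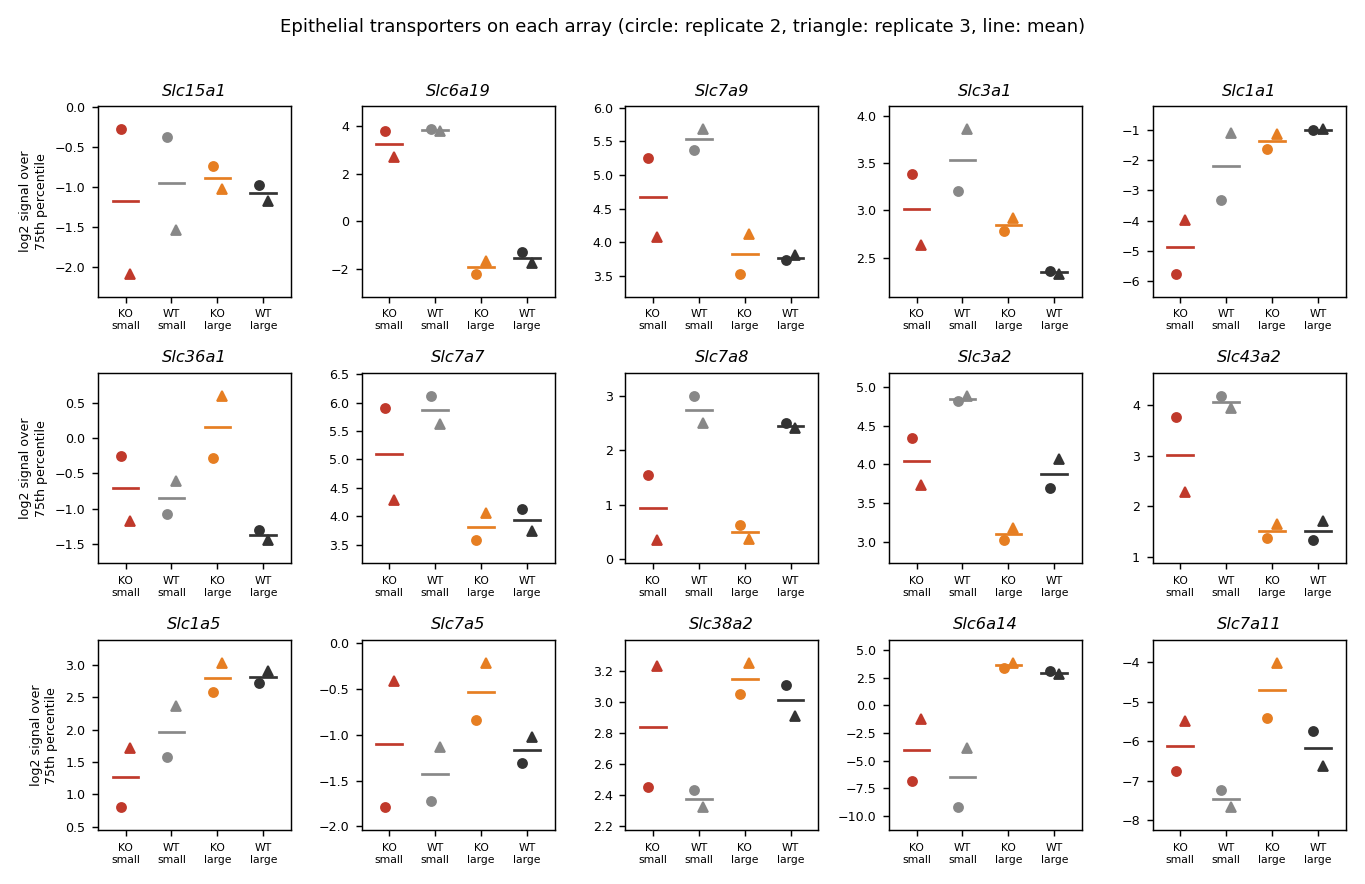
The log2 signal over the array's 75th percentile (y axis, own scale in each panel) of 15 epithelial transporters on the 8 arrays, by group (KO small, WT small, KO large and WT large intestine), with circles for replicate 2, triangles for replicate 3 and lines for group means. Slc6a19 lies between 2.72 and 3.87 on all small intestine arrays and between -2.19 and -1.28 on all large intestine arrays, and Slc7a8 is lower on KO than on WT arrays in both segments.

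The promoters of these 3 genes are shown because they fell together in the large intestine. They are RefSeq windows on GRCm38.p6, from 250 bases before to 50 bases after the annotated start, 5′ to 3′ along the gene: chr13:73692587-73692886 (- strand) for Slc6a19, chr7:35448842-35449141 (+ strand) for Slc7a9 and chr17:85028097-85028396 (+ strand) for Slc3a1. Capitals mark the letters of 3 factors of gut epithelium, found on either strand: CAAAGTCCA for HNF4, GTTAAT for the short HNF1 site and AGATAAG for GATA.
Slc6a19: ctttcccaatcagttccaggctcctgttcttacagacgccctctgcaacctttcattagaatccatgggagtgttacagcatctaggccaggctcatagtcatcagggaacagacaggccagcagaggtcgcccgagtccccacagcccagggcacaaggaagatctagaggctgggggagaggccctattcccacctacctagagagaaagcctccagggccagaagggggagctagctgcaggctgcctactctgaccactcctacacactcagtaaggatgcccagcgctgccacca
Slc7a9: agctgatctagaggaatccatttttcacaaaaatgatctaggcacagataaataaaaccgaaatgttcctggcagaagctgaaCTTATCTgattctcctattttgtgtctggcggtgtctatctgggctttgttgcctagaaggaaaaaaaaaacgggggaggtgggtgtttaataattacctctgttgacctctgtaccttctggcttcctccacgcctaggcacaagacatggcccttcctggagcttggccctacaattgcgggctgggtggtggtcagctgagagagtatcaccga
Slc3a1: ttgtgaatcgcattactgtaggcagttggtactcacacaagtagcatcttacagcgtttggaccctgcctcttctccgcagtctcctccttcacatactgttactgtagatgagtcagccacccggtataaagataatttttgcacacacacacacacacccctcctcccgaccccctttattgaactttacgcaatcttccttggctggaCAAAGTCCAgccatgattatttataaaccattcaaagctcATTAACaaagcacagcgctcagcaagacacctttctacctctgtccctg
The Slc3a1 window holds the HNF4 letters, which 0.475% of all 32851 mouse promoter windows hold, and the short HNF1 site on the opposite strand (7.10% of windows). The Slc7a9 window holds the GATA letters on the opposite strand (3.04% of windows), and the Slc6a19 window holds none of these. The CDX letters TTTATGA, found in 3.71% of windows, were in no window of the 43 tested members that have one. The HNF4 letters were in a window of 1 of the 43, the short HNF1 site of 6 and the GATA letters of 2. Some members have several windows, so counts of members and shares of single windows are not like for like. These are matches of letters in a short window only. The motifs were chosen with results of these data known.

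Slc6a14, a brush border carrier of neutral and cationic amino acids, ran the other way. It read 3.11 and 2.84 in WT large intestine against -9.24 and -3.82 in WT small intestine, and 3.41 and 3.85 in KO large intestine against -6.86 and -1.22 in KO small intestine. All 4 large intestine arrays were thus far above all 4 small intestine arrays, and the 2 small intestine arrays of a group were over 5 apart on the log2 scale. The difference in WT was 9.50 ± 2.15 (limma adjusted p = 0.0272). Only 1 of the 2 WT small intestine arrays measured it well above background, so the size of this difference rests in part on a reading at background. It was 7.38 with normexp background correction and 8.40 with the deposited normalized values. Without replicate 2 of WT small intestine, the array at background, it was 6.79 and did not pass (adjusted p = 0.0742). Without replicate 3 the fitted 12.21 (adjusted p = 0.0198) is set against the reading at background alone and is no measured size. The call was also lost without either array of WT large intestine.

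The other named brush border carriers did not pass in any comparison. Slc15a1, which takes up di- and tripeptides with protons, read -0.28 and -2.08 in KO small intestine against -0.37 and -1.54 in WT small intestine, and -0.74 and -1.03 in KO large intestine against -0.97 and -1.17 in WT large intestine. In the small intestine its 2 replicates of a group lay further apart than the group means, with -0.22 ± 0.62 between KO and WT small intestine (limma adjusted p = 0.840). Slc1a1, a carrier of glutamate and aspartate, read -5.75 and -3.98 in KO small intestine against -3.32 and -1.10 in WT small intestine. The groups did not overlap, and the difference of -2.66 ± 0.80 did not pass (adjusted p = 0.0756). In the large intestine Slc1a1 read -1.63 and -1.14 in KO against -1.01 and -0.99 in WT (-0.38 ± 0.80, adjusted p = 0.853). Slc36a1, a proton-coupled carrier of small neutral amino acids, read -0.29 and 0.59 in KO large intestine against -1.31 and -1.45 in WT large intestine (1.53 ± 0.41, adjusted p = 0.228). Its second probe differed by 0.18 in the same comparison, so the 2 probes did not give the same size. Slc6a18, which carries neutral amino acids and is named here after its values were seen, read -5.89 and -5.48 in KO small intestine against -6.76 and -8.58 in WT small intestine, where 1 of 2 arrays was well above background (1.99 ± 0.55, adjusted p = 0.0632).

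Slc7a8 was the transporter with the lowest adjusted p over both segments, and it was lower in KO gut on every array. This light chain pairs with Slc3a2 and exchanges neutral amino acids across the basolateral membrane. Its probe lies at chr14:55341137-55341196 on mm9, and whether that is coding sequence was not analysed here. It read 1.55 and 0.34 in KO small intestine against 3.00 and 2.51 in WT small intestine, and 0.62 and 0.37 in KO large intestine against 2.50 and 2.42 in WT large intestine. The KO arrays lay below the WT arrays in both segments, with no overlap. It fell by 1.81 ± 0.40 in the small intestine, a 3.51-fold difference (limma adjusted p = 0.0430), and over both segments it fell by 1.89 ± 0.28 (adjusted p = 0.0469). In the large intestine alone the difference was -1.97 ± 0.40 (adjusted p = 0.155). Within replicate numbers the difference KO minus WT was -1.45 and -2.17 in the small and -1.88 and -2.05 in the large intestine. Without replicate 2 of KO small intestine the small intestine difference was -2.42 (adjusted p = 0.0140), and it did not pass when any other single array was left out. It was -1.20 (adjusted p = 0.132) without replicate 3 of KO small intestine. Over both segments it likewise passed only without replicate 2 of KO small intestine, and the adjusted p reached 0.141. Slc7a8 did not pass between WT large and WT small intestine (-0.30 ± 0.40, adjusted p = 0.628).

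Slc3a2, the heavy chain of Slc7a8, Slc7a7 and other light chains, lay on the same side. It read 4.34 and 3.74 in KO small intestine against 4.82 and 4.88 in WT small intestine, and 3.02 and 3.18 in KO large intestine against 3.69 and 4.07 in WT large intestine. The KO arrays were below the WT arrays in both segments, and the differences of -0.81 ± 0.26 and -0.78 ± 0.26 did not pass (limma adjusted p = 0.0887 in small and 0.300 in large intestine). Between WT large and WT small intestine Slc3a2 fell by 0.97 ± 0.26 (adjusted p = 0.0454). Slc7a7, the light chain that releases cationic amino acids to the blood, read 5.91 and 4.29 in KO small intestine against 6.11 and 5.63 in WT small intestine, with overlap (-0.77 ± 0.52, adjusted p = 0.358). It read 4.13 and 3.75 in WT large intestine and so fell by 1.93 ± 0.52 relative to WT small intestine (adjusted p = 0.0441). The WT segment calls of Slc3a2 and Slc7a7 were both lost when any one array of WT small, WT large or KO large intestine was left out, with adjusted p up to 0.219 for Slc3a2 and 0.198 for Slc7a7. Slc43a2, a facilitative carrier of large neutral amino acids, read 3.77 and 2.28 in KO small intestine against 4.18 and 3.95 in WT small intestine (-1.03 ± 0.46, adjusted p = 0.180). In WT large intestine it read 1.33 and 1.72, a fall of 2.54 ± 0.46 relative to WT small intestine (adjusted p = 0.0139). That call was lost without either array of WT large intestine or replicate 3 of WT small intestine (adjusted p up to 0.0922). Slc43a1, a relative with similar substrates, read -0.87 and -0.70 in KO small intestine against -1.85 and -1.96 in WT small intestine and rose by 1.12 ± 0.20 (adjusted p = 0.0328). In WT large intestine it read -1.06 and -1.07, higher than in WT small intestine by 0.84 ± 0.20 (adjusted p = 0.0320). Slc43a1 and Slc43a2 thus moved in opposite directions between the WT segments. Without either array of WT small or WT large intestine neither Slc43a1 call passed, and without replicate 3 of KO small intestine its knockout call did not (adjusted p up to 0.153).

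The promoter windows of Slc7a8 and Slc7a7 are shown because these basolateral light chains share the heavy chain Slc3a2 and lie in 1 region of chromosome 14, and Slc7a8 passed in the knockout comparison while Slc7a7 did not. They are RefSeq windows on GRCm38.p6, chr14:54781837-54782136 (- strand) and chr14:54417895-54418194 (- strand). Capitals mark TGATGNAA, the letters of the C/EBP-ATF element through which amino acid shortage acts on some transporter genes, searched on both strands.
Slc7a8: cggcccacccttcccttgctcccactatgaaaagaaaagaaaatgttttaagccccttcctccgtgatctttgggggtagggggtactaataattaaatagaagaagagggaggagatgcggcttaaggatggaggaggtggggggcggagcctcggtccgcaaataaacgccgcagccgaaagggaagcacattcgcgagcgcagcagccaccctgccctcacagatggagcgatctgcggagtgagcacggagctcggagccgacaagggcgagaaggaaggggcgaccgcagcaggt
Slc7a7: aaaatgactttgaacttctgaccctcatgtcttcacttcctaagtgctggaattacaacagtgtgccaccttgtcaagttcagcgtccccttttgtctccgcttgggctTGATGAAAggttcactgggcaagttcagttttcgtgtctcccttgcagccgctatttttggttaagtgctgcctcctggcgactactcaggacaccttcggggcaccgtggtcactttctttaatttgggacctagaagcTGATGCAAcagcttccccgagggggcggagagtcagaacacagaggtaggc
RefSeq gives 5 windows for Slc7a7 and 2 for Slc7a9, and the one nearest the annotated gene start is shown for each. The window shown for Slc7a7 holds 2 such matches and that of Slc7a8 none, and 3.97% of all windows hold at least 1. Of the members with a window, Slc1a4, Slc7a11 and Slc7a7 hold them.

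Among the 11 measured carriers for uptake and exchange of neutral amino acids, 2 rose and none fell in KO small intestine. Of all genes, 6.47% rose and 3.55% fell there. Slc6a15, a sodium-coupled carrier of branched-chain amino acids and proline best known from neurons, read -3.30 and -2.21 in KO small intestine against -4.39 and -5.21 in WT small intestine. It rose by 2.04 ± 0.41, a 4.11-fold difference (limma adjusted p = 0.0377). Within replicate 2 the difference was 1.08 and within replicate 3 it was 2.99. Slc38a4, a sodium-coupled carrier of small neutral amino acids known from liver, read -0.02 and 0.80 in KO small intestine against -1.04 and -1.37 in WT small intestine (1.6 ± 0.37, adjusted p = 0.0458). Neither passed in the large intestine, with -3.42 and -3.56 in KO against -3.07 and -3.16 in WT for Slc6a15 and 0.57 and -0.25 in KO against -0.01 and 0.03 in WT for Slc38a4. The mean of Slc6a15 in KO small intestine, -2.76, lay nearer to its means of -3.49 in KO and -3.11 in WT large intestine than to its mean of -4.80 in WT small intestine. Slc6a15 was higher in WT large than in WT small intestine by 1.68 ± 0.41 (adjusted p = 0.0339). The knockout call of Slc6a15 was lost when replicate 3 of KO or WT small intestine or any one large intestine array was left out (adjusted p up to 0.164), and its WT segment call without replicate 3 of WT small intestine or any one large intestine array (adjusted p up to 0.152). The call of Slc38a4 was kept when replicate 2 of KO small intestine was left out and lost without each of the other arrays (adjusted p up to 0.197).

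The glutamine and alanine carriers of most cells did not pass in the knockout comparisons. Slc1a5 read 0.80 and 1.72 in KO small intestine against 1.57 and 2.36 in WT small intestine, with overlap (-0.70 ± 0.39, limma adjusted p = 0.270). Slc7a5, a light chain that exchanges large neutral amino acids, read -1.79 and -0.42 in KO small intestine against -1.72 and -1.13 in WT small intestine (0.33 ± 0.48, adjusted p = 0.685). The second probe of Slc7a5 differed by -0.41 in the same comparison, so its 2 probes did not give the same direction. Slc38a2, a carrier that cells raise when amino acids run short, read 2.45 and 3.23 in KO small intestine against 2.43 and 2.32 in WT small intestine (0.47 ± 0.28, adjusted p = 0.309). None of these 3 passed, and the arrays of Slc1a5 and Slc7a5 overlapped between the groups. Between the WT segments Slc38a3, which carries glutamine in either direction, read -1.89 and -1.82 in large against 0.49 and 0.58 in small intestine and fell by 2.39 ± 0.64 (adjusted p = 0.0437). Slc1a4, a carrier of alanine, serine and cysteine, fell as well, by 1.04 ± 0.27 (adjusted p = 0.0413). Slc7a10, a light chain for small neutral amino acids, read -5.12 and -4.83 in WT large intestine against -7.79 and -8.89 in WT small intestine. It was not well above background on either WT small intestine array, so only a bound can be given: it was at least 3.95-fold higher in WT large intestine (adjusted p = 0.0215). Such bounds set the bright group's mean against, on each array of the dim group, the higher of the probe's signal and the lowest signal of any probe well above background. With normexp background correction the Slc7a10 difference was 1.04 (adjusted p = 0.0514), which is smaller than that bound, and with the deposited normalized values it was 2.1. Without replicate 3 of WT small intestine or either array of WT large intestine it did not pass, nor did Slc38a3 and Slc1a4, both of which also missed without replicate 2 of WT small intestine, and Slc1a4 without either array of KO large intestine.

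**Figure D3:**
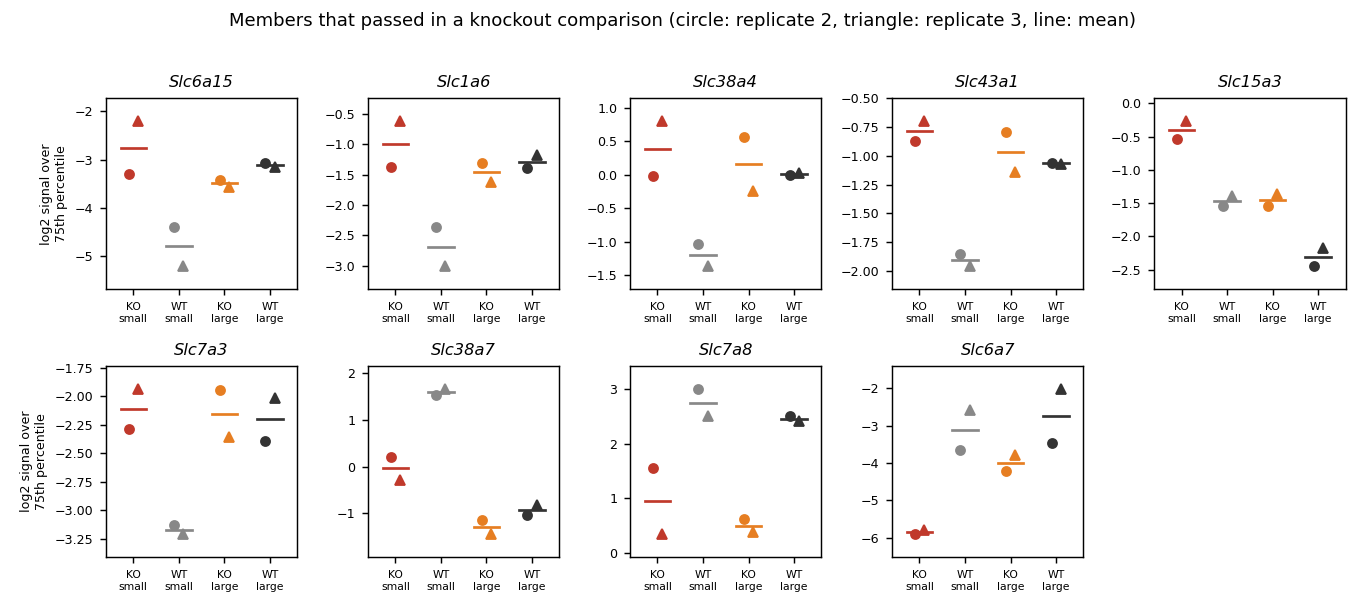
The log2 signal over the array's 75th percentile (y axis, own scale in each panel) on the 8 arrays for the 9 transporters that passed between KO and WT, by group (KO small, WT small, KO large and WT large intestine), with circles for replicate 2, triangles for replicate 3 and lines for group means. The 6 panels from Slc6a15 to Slc7a3, show KO small intestine above WT small intestine, and Slc38a7, Slc7a8 and Slc6a7 show it below.

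Of the cationic and cystine carriers, Slc7a3, a carrier of arginine and lysine, read -2.29 and -1.94 in KO small intestine against -3.13 and -3.21 in WT small intestine. It rose by 1.05 ± 0.25, a 2.08-fold difference (limma adjusted p = 0.0462). In KO large intestine it read -1.95 and -2.36, against -2.39 and -2.02 in WT large intestine, with overlap, and WT large intestine was higher than WT small intestine by 0.97 ± 0.25 (adjusted p = 0.0384). The knockout call was kept without replicate 2 of KO small intestine and lost without each of the other arrays (adjusted p up to 0.195). The WT segment call was lost without any one array of WT small or WT large intestine (adjusted p up to 0.202). Slc7a11, which takes up cystine in exchange for glutamate, read -6.76 and -5.48 in KO small intestine against -7.23 and -7.67 in WT small intestine, where it was not well above background. KO large intestine had -5.40 and -4.02, against -5.73 and -6.62 in WT large intestine. Its KO arrays lay above its WT arrays in both segments, and neither difference passed (adjusted p = 0.185 in small and 0.370 in large intestine). Slc7a2 read -5.63 and -8.89 in the 2 KO large intestine arrays, the widest gap of any member within that group.

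The 4 measured members grouped as glutamate carriers of glia and neurons had a positive difference in KO small intestine, with a median of 0.71. All 4 had a negative one in KO large intestine, with a median of -0.52. Slc1a1, a glutamate carrier grouped here with the brush border, differed by -2.66 in the small and -0.38 in the large intestine. Within replicate numbers the small intestine differences were -0.6 and 1.24 for Slc1a3 and -0.12 and 0.65 for Slc1a7. In the large intestine they were 0.64 and -2.0 for Slc1a2 and 0.09 and -0.44 for Slc1a6, and negative in both numbers for Slc1a3 and Slc1a7. The lowest limma adjusted p of the 4 in the large intestine was 0.513. Of all 20002 genes, 8566 had a positive difference in KO small intestine and 10006 in KO large intestine. Slc1a6, known from Purkinje cells of the cerebellum, passed in the small intestine. It read -1.38 and -0.62 in KO small intestine against -2.37 and -3.01 in WT small intestine (1.69 ± 0.34, limma adjusted p = 0.0373), and -1.30 and -1.62 in KO large intestine against -1.39 and -1.18 in WT large intestine. Within replicate numbers the small intestine difference was 0.99 and 2.39. WT large intestine was higher than WT small intestine by 1.41 ± 0.34 (adjusted p = 0.0320). Of the 6 that rose in KO small intestine, Slc1a6, Slc6a15, Slc38a4, Slc43a1 and Slc7a3 had WT small intestine as the lowest of the 4 groups. For Slc15a3 it was WT large intestine (mean -2.32, against -1.48 in WT small intestine). A low WT small intestine was in part built in, as these members were chosen for a rise over it. Replicate 3 of WT small intestine had the lowest value of the 8 arrays for the 5. The summed markers of neurons (7.32), enteric glia (2.17), mesothelium (4.63), smooth muscle (159) and neutrophils (17.9) were also lowest on that array. Other lists went differently. The summed T cell markers (1.61) were highest on that array. Those of macrophages (71.4), liver (5.86), pancreas (0.0615) and enterocytes (451) were not lowest on it. The part of these cell types was not tested. For the 5 members the test of a knockout effect that differs between the segments did not pass. The lowest limma adjusted p was 0.0994, for Slc1a6 and for Slc6a15. Their knockout effect in the large minus that in the small intestine was -1.87 ± 0.48 for Slc1a6 and -2.42 ± 0.58 for Slc6a15. The knockout call of Slc1a6 was lost without replicate 3 of KO or WT small intestine or any one large intestine array (adjusted p up to 0.164), and its WT segment call without replicate 3 of WT small intestine or either array of WT large intestine (adjusted p up to 0.163).

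Among the 10 measured carriers of neurotransmitters, osmolytes and creatine, 1 fell in KO small intestine, where 3.55% of all genes fell. Slc6a7, a proline carrier known from brain synapses, read -5.90 and -5.78 in KO small intestine against -3.64 and -2.59 in WT small intestine. It fell by 2.72 ± 0.53, a 6.60-fold difference (limma adjusted p = 0.0363). KO large intestine had -4.22 and -3.78, against -3.46 and -2.02 in WT large intestine, again with no overlap, and the difference of -1.26 ± 0.53 did not pass (adjusted p = 0.378). With normexp background correction the small intestine difference was -1.75 (adjusted p = 0.0394). The call was kept without replicate 2 of WT small intestine and lost without each of the other arrays (adjusted p up to 0.152).

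Of these 10 carriers, 3 were lower and 1 was higher in WT large than in WT small intestine, against 9.97% and 9.99% of all genes. Slc6a3, the dopamine transporter (probe at chr13:73715973-73716032, mm9), read -4.82 and -4.70 in WT large intestine against 0.90 and 0.30 in WT small intestine and fell by 5.36 ± 0.60, a 41.0-fold difference (limma adjusted p = 0.00269). It passed without each array in turn, and normexp background correction gave -4.65, a 25.1-fold difference. In KO gut it read -5.96 and -6.84 in large and 0.86 and -0.94 in small intestine, the same order. Slc6a4, the serotonin transporter, by which the gut epithelium clears serotonin, read -1.27 and -0.74 in WT large intestine against 1.62 and 1.60 in WT small intestine (-2.61 ± 0.57, adjusted p = 0.0245). It read 0.48 and -1.06 in KO small intestine, below both WT small intestine arrays, and that difference of -1.90 ± 0.57 did not pass (adjusted p = 0.0750). Slc6a6, the taurine carrier, fell in WT large intestine by 1.44 ± 0.26 (adjusted p = 0.0137). Slc6a11, a carrier of the neurotransmitter GABA, was not well above background in WT small intestine and was at least 2.43-fold higher in WT large intestine (adjusted p = 0.00800). With normexp background correction the Slc6a11 difference was 0.47 (adjusted p = 0.164), and with the deposited normalized values it was 1.09, both below that bound, and without replicate 3 of WT large intestine it also missed. Slc6a4 lost its call without any one array of WT small or WT large intestine, and Slc6a6 without replicate 3 of WT small or either array of WT large intestine.

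Of the lysosomal and oligopeptide carriers, Slc15a3 was higher and Slc38a7 lower in KO small intestine. Slc15a3, which moves histidine and small peptides out of the lysosomes of immune cells, read -0.54 and -0.27 in KO small intestine against -1.55 and -1.40 in WT small intestine, and -1.54 and -1.37 in KO large intestine against -2.45 and -2.18 in WT large intestine. The KO arrays lay above the WT arrays in both segments. The rise was 1.07 ± 0.21 in the small intestine (limma adjusted p = 0.0362) and 0.97 ± 0.15 over both segments (adjusted p = 0.0497), and the large intestine alone gave 0.86 ± 0.21 (adjusted p = 0.190). Slc15a3 was lower in WT large than in WT small intestine by 0.84 ± 0.21 (adjusted p = 0.0348). The small intestine call was kept without replicate 2 of KO small intestine and lost without each of the other arrays (adjusted p up to 0.143). The call over both segments was lost without each of the 8 arrays and was kept under 3 of 9 alternatives that used all arrays (adjusted p up to 0.156). The WT segment call was lost without any one array of WT small, WT large or KO large intestine (adjusted p up to 0.182). Of 4 macrophage markers, Lyz2 and Adgre1 passed upward in KO small intestine, and Lyz2 alone passed over both segments (1.70 ± 0.19, adjusted p = 0.0249). Csf1r differed by -0.04 in the small and 0.09 in the large intestine, and Cd68 by 0.32 and 0.04, and neither passed. The 4 markers summed to 101.0 and 59.9 in KO against 82.0 and 71.4 in WT small intestine, with overlap, and to 16.7 and 15.9 in KO against 14.7 and 14.6 in WT large intestine. All 4 were well above background on all 8 arrays, and their part in the value of Slc15a3 was not tested.

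Slc38a7, which exports glutamine from lysosomes (probe at chr8:98360074-98360133, mm9), read 0.21 and -0.28 in KO small intestine against 1.53 and 1.66 in WT small intestine. It fell by 1.63 ± 0.24, a 3.1-fold difference with the lowest adjusted p of the members in that comparison (limma adjusted p = 0.0243). Values of -1.14 and -1.45 in KO large intestine stood against -1.04 and -0.83 in WT large intestine (-0.36 ± 0.24, adjusted p = 0.550). Between the WT segments it fell by 2.53 ± 0.24 in the large intestine (adjusted p = 0.00161), a call kept without each array in turn. The knockout call was kept under every alternative that used all arrays, and was lost without replicate 3 of KO or WT small intestine or either array of WT large intestine (adjusted p up to 0.117).

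Of the 10 measured members with other or less known substrates, none passed between KO and WT and 3 fell in WT large intestine. Of all genes, 9.97% fell in WT large intestine. Between KO and WT 10% of all genes passed in the small and 0.31% in the large intestine. Slc7a15, a rodent light chain for aromatic amino acids, read -7.73 and -7.21 in WT large intestine, where it was not well above background, against -3.33 and -2.55 in WT small intestine. It was at least 18.9-fold lower in WT large intestine (limma adjusted p = 0.00219) and passed without each array in turn. Other settings gave sizes below that bound, 5.35-fold with normexp background correction, 9.85-fold with the deposited normalized values and 14.4-fold with the mean of its 2 probes, and the second probe differed by -3.16. All of these had the same direction. In KO small intestine it read -1.72 and -1.88, above both WT arrays (1.14 ± 0.47, adjusted p = 0.156). Slc38a6, a less studied relative of the glutamine carriers, read -2.22 and -2.79 in WT large intestine against 0.47 and 0.44 in WT small intestine (-2.96 ± 0.53, adjusted p = 0.0132). That call was lost without replicate 3 of WT small intestine or either array of WT large intestine. The fall of Slc43a3, a carrier of purine nucleobases, was 1.31 ± 0.36 (adjusted p = 0.0478) and was lost with quantile normalization, with the deposited normalized values and without any one array of KO small, WT small or WT large intestine (adjusted p up to 0.199). The 5 members never measured above background on both arrays of a group were Slc15a5, Slc36a3, Slc6a2, Slc7a12 and Slc7a13.

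**Figure D4:**
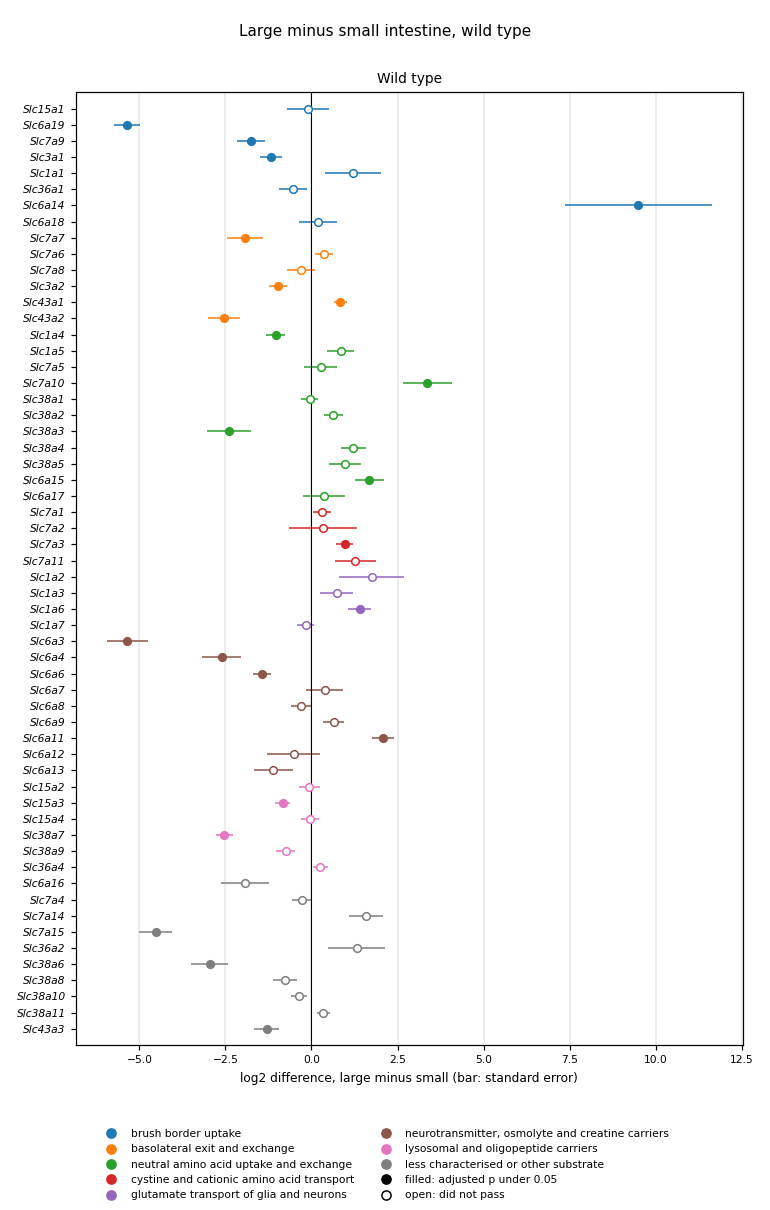
The log2 difference WT large minus WT small intestine (x axis) of 58 of the 59 transporter genes (rows, coloured by role), with bars of 1 standard error from limma and filled points for an adjusted p under 0.05. Of the 23 filled points 16 lie left of 0, with Slc6a19 and Slc6a3 both at -5.36, and 7 lie right of it, with Slc6a14 at 9.50.

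Several members are neighbours in the genome, and 12 pairs have probes within 500 kb of each other on mm9. In 3 pairs both genes passed between the WT segments. Slc6a3 and Slc6a19 lie 103 kb apart on chromosome 13 and both fell, while the probe of Slc6a18 between them differed by 0.19 near background. Slc43a1 and Slc43a3, 94.3 kb apart on chromosome 2, went opposite ways, as did Slc7a10 and Slc7a9, 265 kb apart on chromosome 7. Slc7a7 and Slc7a8, 352 kb apart on chromosome 14, passed in different comparisons, Slc7a7 between the WT segments and Slc7a8 between KO and WT. Of the 3 pairs that passed together, 1 shared its direction and 2 did not.

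Counted over both segments, 5 of the 59 members (8.47%) had KO arrays above WT arrays in both segments with no overlap, against 5.82% of all genes. Among them were Slc15a3, Slc36a2, Slc6a13 and Slc7a11. Of the 4 groups, KO large intestine alone had Slc36a2 well above background on both arrays. Neither Slc36a2 nor Slc7a11 was well above background on any WT small intestine array. The order of these 2 genes thus rests in part on readings at background. In 8 members (13.6%, against 8.96% of all genes) the KO arrays lay below the WT arrays in both: Slc15a2, Slc1a1, Slc38a1, Slc38a7, Slc38a9, Slc3a2, Slc6a7 and Slc7a8. Except for Slc15a3 and Slc7a8 these did not pass over both segments. Slc6a13, a GABA and taurine carrier, read -1.0 and -2.91 in the 2 KO large intestine arrays, and the higher value came from replicate 2. On that array Alb, the albumin gene of liver, read 5.23, against -8.38 to -4.53 on the other 7 arrays. Members differed in both directions between that array and replicate 3 of the same group. Slc6a12, Slc7a2, Slc38a4, Slc38a3, Slc38a5 and Slc43a3 were also higher on replicate 2, and Slc36a1, Slc7a11 and Slc6a4 were lower on it. Over all genes the median of replicate 3 minus replicate 2 in this group was 0.024. The part of liver RNA in these values was not tested.

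The 2 arrays of a group lay further apart for the transporters than for genes at large. In KO small intestine the median gap was 0.76 for the members and 0.39 for all genes. In WT small intestine it was 0.41 for the members and 0.29 for all genes. It was 0.41 for the members and 0.28 for all genes in KO large intestine, and 0.27 and 0.21 in WT large intestine. The members were not set beside genes of like signal, and the part of low signal in these gaps was not tested.

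Related genes outside the naming rule give context. The calls of these genes, here and in the pathway lists below, were not followed under the alternatives or with an array left out. Slc6a20a, a proline carrier of the brush border whose name ends in a letter and so falls outside the rule, read -1.40 and -2.37 in KO small intestine against 0.69 and 0.62 in WT small intestine and fell by 2.54 ± 0.41 (limma adjusted p = 0.0280). In WT large intestine it was lower than in WT small intestine by 3.54 ± 0.41 (adjusted p = 0.00301). Slc6a20b, outside the rule for the same reason, did not pass between KO and WT. Its difference was -3.05 ± 0.96 in the small (adjusted p = 0.0839) and 1.33 ± 0.96 in the large intestine (adjusted p = 0.573). It was lower in WT large than in WT small intestine by 3.54 ± 0.96 (adjusted p = 0.0455). Of 12 genes listed under amino acid breakdown, 3 fell in KO small intestine and none rose, where 3.55% of all genes fell and 6.47% rose. Among the 3, Aldh18a1 is an enzyme of proline and ornithine synthesis, not of breakdown (-2.29 ± 0.33, limma adjusted p = 0.0243). Prodh, which begins proline breakdown, was among them too (-2.04 ± 0.43, adjusted p = 0.0394).

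Of 16 peptidases, 2 rose and 1 fell in KO small intestine, where 6.47% of all genes rose and 3.55% fell. Tmprss15, the enteropeptidase that activates trypsinogen, read -0.24 and 1.18 in KO small intestine against -5.09 and -8.97 in WT small intestine (7.50 ± 1.14, limma adjusted p = 0.0254). Only 1 of the 2 WT small intestine arrays measured it well above background, so the size rests in part on a reading at background. Dpep1, a dipeptidase, rose by 1.26 ± 0.30 (adjusted p = 0.0475), and Xpnpep2, which cleaves peptides ahead of proline, fell by 1.71 ± 0.34 (adjusted p = 0.0376). Xpnpep2 also fell over both segments, by 1.65 ± 0.24 (adjusted p = 0.0450), the sole gene of the 5 pathway lists to do so. Of 9 genes for the NRF2 response and glutathione, Nqo1 fell in KO small intestine (-1.11 ± 0.22, adjusted p = 0.0369). None of 15 genes of the amino acid response through ATF4 passed in limma in a knockout comparison, and 4 (26.7%) were at an unadjusted p under 0.05 in the small intestine, against 31.5% of all genes. In the large intestine no gene of the 5 lists passed between KO and WT, against 0.31% of all genes. Between the WT segments 9 of 16 peptidases were lower and 1 was higher in the large intestine. Of 9 partners of the transporters 5 were lower and 1 was higher, where 9.97% of all genes were lower and 9.99% higher.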

How the data were processed

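The 8 samples were single-colour Agilent arrays (Cy3, per the labels) of total RNA, grouped by the genotype and segment in their titles. The deposited array files, per the file headers, give spot intensity as Agilent Feature Extraction wrote it, with the background subtracted within an array, without scaling across arrays, and with mm9 probe positions. The authors also deposited normalized linear intensity per probe, whose columns (medians 159.0 to 160.87) correlated with their own arrays at 0.991 or more on the log2 scale. The submitters' processing notes name R 3.3.0, and the steps behind that normalization are not given. All 8 arrays were on 1 slide with 1 scan date. Every group had a slide column of its own, and the effect of the column cannot be told apart from that of the group.

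From the deposited processed signal, log2 minus the array's 75th percentile over 59305 non-control spots was taken. Spots with an outlier flag were dropped (148 to 312 per array), spots of a probe averaged, and a probe kept if 1 group or more had it well above background on both arrays. The probe with the highest mean stood for a gene. Of 8 members with several kept probes, the probes had 1 sign in 7 (KO minus WT, small intestine), 4 (large intestine) and 5 (WT large minus WT small intestine). The limma package (3.58.1, under R 4.3.3) fitted 1 mean per group (4 residual degrees of freedom), or genotype and segment as additive terms for both segments together (5). The median standard error of a difference was 0.276. The fit was tested on simulated data. The number of arrays limits the precision.

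Members and gene lists were chosen with earlier results of these data known. The text names 15 transporters of the epithelial route, every member that passed in a knockout comparison, the 8 largest differences each way among those that passed between the WT segments, up to 3 genes of each other list with the smallest p in the knockout comparisons, and Cldn7. Other members that are named were chosen after their values were seen. The results of a few single genes that the counts include are not reported here. The alternatives were the deposited normalized values, normexp background correction (offset 50), quantile normalization, dropping the background filter, requiring signal on all 8 arrays, keeping flagged spots, averaging a gene's probes, a trended robust prior in limma, a block for the replicate number, and leaving out each array.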

Additional observations from a re-analysis of the deposited data

How the results depend on the processing

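None of the 34 calls of transporters changed sign under the alternatives run. In KO against WT small intestine, where 9 members passed, the count was 14 with the deposited table (14.1% of all genes), 1 without the background filter, which adds genes near background to the adjustment (1.95% of all genes), and 5 with the replicate block (5.72% of all genes), and 0 to 21 when 1 array was left out (0.35% to 19.1% of all genes). Over both segments, where 2 passed, it was 1 with normexp correction (0.39% of all genes) and 1 with the deposited table (0.425%). It was 0 without the filter (0.212%) and 1 with outlier flags ignored (0.473%). The trended and robust prior (0.45%) and the replicate block (0.33%) gave 1 each. Both calls over both segments depended on single arrays. The difference between segments gave 0 in every setting that kept all arrays, against 0.0281% to 0.165% of all genes. Between WT large and WT small intestine, where 23 passed, it was 13 without the filter (11.8% of all genes) and 4 to 24 with 1 array left out (4.51% to 24.9% of all genes). Slc6a19, Slc6a3, Slc7a15 and Slc38a7 passed without each array in turn. Where not stated, the cause was not tested.

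Same-numbered arrays share a slide row, and the labels tie the numbers to no animal or litter. Their deviations correlated at 0.00865 to 0.263, over 0.1 in 4 of 6 pairs of groups and not in all, so they were not treated as pairs. With the replicate block the knockout calls of Slc6a15, Slc1a6, Slc38a4 and Slc7a3 in the small intestine (adjusted p = 0.0526 to 0.0626), of Slc15a3 over both segments (0.0585) and of Cldn7 in the large intestine (0.0719) were lost, as were the WT segment calls of Slc6a15, Slc7a3, Slc3a1 and Slc3a2 (0.0516 to 0.0644). With 2 arrays per group, each of the 9 small intestine calls was lost without at least 1 array. Members near background on some arrays gave smaller differences between the WT segments under normexp correction, which was -2.42 for Slc7a15 and 7.38 for Slc6a14.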
